A study of Mus musculus with 20 samples.

Results

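Cyp4a10, Cyp4a14, Cyp4a31 and Cyp4a32 are mouse fatty acid hydroxylases of the cytochrome P450 4A subfamily, and their transcripts were followed through 3 groups of liver libraries. The 4 genes were taken by symbol from the 32400 Ensembl genes of the deposited table, with symbols from GENCODE release M21. All 4 were among the 13667 genes that passed the filter on low counts and were tested. Liver mRNA of the substrain C57BL/6NTac was sequenced in 20 libraries. Untreated mice on standard chow make up the chow control group (n = 5). The HFHF control group (n = 7) ate a high-fat, high-fructose (HFHF) diet and received phosphate-buffered saline. Against chow control, diet and saline cannot be told apart, so differences described below as on the diet hold both. The HFHF Flcn gRNA group (n = 8) ate the HFHF diet and received adeno-associated virus of serotype AAV8 with a guide RNA (gRNA) against Flcn, the gene of folliculin, a regulator of the Rag GTPases at the lysosome. The labels used here give no age, sex, source of Cas9 or virus without the Flcn guide, so virus and guide cannot be told apart, and they do not say that each library is a separate animal, so the p-values below reflect only the spread among libraries, which may be technical.

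CYP4A enzymes place a hydroxyl group on the terminal (omega) carbon of medium- and long-chain fatty acids. Alcohol and aldehyde dehydrogenases then turn the product into a dicarboxylic acid, which is shortened in peroxisomes. Cyp4a10 and Cyp4a14 are textbook targets of PPARA, the nuclear receptor that raises fatty acid oxidation in the fasted liver, and PPARA ligands raise them strongly in rodent hepatocytes.

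All 4 genes lie within one cluster on mouse chromosome 4 (GRCm38, GENCODE M21). Cyp4a14 (ENSMUSG00000028715, chr4:115486200-115496142) is on the minus strand. Cyp4a10 (ENSMUSG00000066072, chr4:115518264-115533649), Cyp4a31 (ENSMUSG00000028712, chr4:115563649-115579015) and Cyp4a32 (ENSMUSG00000063929, chr4:115600969-115621602) follow it on the plus strand. The coding sequences of Cyp4a10, Cyp4a31 and Cyp4a32 are each 1530 bases long and nearly the same. Cyp4a10 was 96.6% identical to Cyp4a31, with 52 bases different, and 97.2% identical to Cyp4a32, with 43 bases different. Cyp4a14, with 1524 coding bases, was 75.3% identical to Cyp4a10, and so stands apart from the other 3.

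A read of this study was 51 bases long, so 51-base stretches show what a read could tell apart. The first stretch is from exon 8 and is shown because it is one of those in which Cyp4a10, Cyp4a31 and Cyp4a32 do not differ at all, so that a read from it fits all 3 genes. It covers coding bases 958 to 1008 of Cyp4a10, at chr4:115525561-115525611 on the plus strand. The matching stretches are at chr4:115491364-115491414 on the minus strand for Cyp4a14, at chr4:115571021-115571071 on the plus strand for Cyp4a31 and at chr4:115611280-115611330 on the plus strand for Cyp4a32. Capitals mark the bases that differ from Cyp4a10 and, in the Cyp4a10 line, those at which any of the other genes differs.
Cyp4a10: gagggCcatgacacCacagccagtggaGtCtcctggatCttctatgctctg
Cyp4a14: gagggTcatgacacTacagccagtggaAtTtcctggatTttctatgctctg
Cyp4a31: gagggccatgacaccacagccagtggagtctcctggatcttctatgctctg
Cyp4a32: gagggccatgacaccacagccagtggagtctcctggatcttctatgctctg
Cyp4a14 differs from the other genes at 5 bases here, the fewest of any stretch identical in those 3 genes, by the rule that picked it.

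The second stretch, from exon 2, is shown because it is the one at which the 3 close genes vary most. It covers coding bases 211 to 261 of Cyp4a10, at chr4:115519651-115519701 on the plus strand. Its counterparts are at chr4:115494959-115495009 on the minus strand for Cyp4a14, at chr4:115565031-115565081 on the plus strand for Cyp4a31 and at chr4:115602281-115602331 on the plus strand for Cyp4a32, with capitals as before.
Cyp4a10: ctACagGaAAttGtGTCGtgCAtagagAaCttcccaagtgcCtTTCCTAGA
Cyp4a14: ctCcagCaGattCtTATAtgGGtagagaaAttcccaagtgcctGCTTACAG
Cyp4a31: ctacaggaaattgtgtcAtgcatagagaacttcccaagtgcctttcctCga
Cyp4a32: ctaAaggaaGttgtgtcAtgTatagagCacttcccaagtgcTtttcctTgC
Here Cyp4a31 differs from Cyp4a10 at 2 bases and Cyp4a32 at 8, against 19 for Cyp4a14. The stretch was not picked for any single pair, so other stretches may differ more between Cyp4a10 and Cyp4a31. Of 922 coding stretches of this length that lie within 1 exon, 95 (10.3%) were identical in Cyp4a10, Cyp4a31 and Cyp4a32, and 0 were identical in all 4 genes.

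Words of 51 bases were taken from each gene's transcript with the longest coding sequence, over its whole length. Of those of Cyp4a14, 99.8% occur in no other gene. The share was 70.1% for Cyp4a10, 78.7% for Cyp4a31 and 54.2% for Cyp4a32. The Cyp4a32 transcript, 1530 bases, is annotated with coding sequence only. Those of Cyp4a10 and Cyp4a31, 2109 and 2509 bases, also hold untranslated sequence, so these shares are not directly comparable. Cyp4a10 shares 310 of its 2059 words with Cyp4a31 and 504 with Cyp4a32. The deposited values are estimated counts, which need not be whole. The estimated count of Cyp4a14 was a whole number in 18 of 20 libraries, and those of Cyp4a10, Cyp4a31 and Cyp4a32 in 0 of 20. The levels of these 3 genes are therefore uncertain, since the authors' counting could move reads between them, or between Cyp4a31 and other genes. The sources used here do not say how shared reads were divided.

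**Figure D1:**
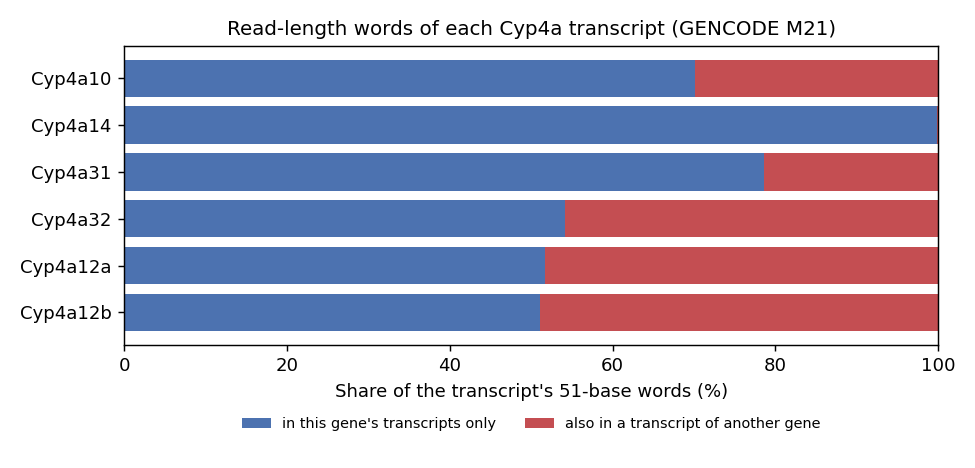
Share of the 51-base words of each gene's transcript with the longest coding sequence (x axis, percent) that occur in that gene only (blue) or also in a transcript of another gene (red), for the 4 genes and their neighbours Cyp4a12a and Cyp4a12b. Cyp4a14 is nearly all blue at 99.8%, and Cyp4a32 has the smallest blue share of the 4 genes, 54.2%.

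Total estimated counts per library ran from 13974379 to 19586576. Flcn itself was at 20.7 ± 2.98 CPM (counts scaled by library size; SD, n = 7) in HFHF control and 17.8 ± 2.40 (n = 8) in HFHF Flcn gRNA libraries, and did not pass the test between them (log2 fold change -0.22, SE 0.12, adjusted p 0.14 in edgeR's quasi-likelihood test), so its transcript does not check the labels. The name of HFHF Flcn gRNA replicate 8 differs from all others in a field whose meaning is not given, and a batch of 1 library cannot be told apart from the library itself. The 8 hepatocyte markers summed to 75360 to 96570 CPM in chow control, 44260 to 64370 in HFHF control and 49730 to 81230 in HFHF Flcn gRNA libraries. Stellate cell markers moved the other way, from 129.2 to 157.2 CPM in chow control to between 452.6 and 722 in HFHF control and between 176.1 and 266.3 in HFHF Flcn gRNA libraries, and those of monocyte-derived macrophages from 17.9 to 28.4 to between 118.2 and 313.2 and between 64.6 and 187.9. Cholangiocyte markers summed to 24.7 to 35.7, 93 to 226.7 and 30.5 to 80.5 CPM in the same order of groups. Of those tested, 4 of 4 were lower with the guide than in HFHF control, as were 19.0% of all tested genes. The macrophage and cholangiocyte lists share a gene, so their values are not independent. Of 5 Kupffer cell and 5 sinusoidal endothelial markers, 3 each were higher and 0 lower with the guide than in HFHF control, beside 19.6% of all tested genes higher. The summed Kupffer markers did not rise, with medians of 242.5 CPM in HFHF control and 206.6 with the guide. The medians of the endothelial sums were 115.1 and 176.3 CPM. In bulk liver, fewer cells of a type and less RNA per cell cannot be told apart. CYP4A enzymes are also made in kidney tubules, whose 5 markers summed to at most 2.41 CPM in any library.

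Cyp4a10 and Cyp4a32 fell on the HFHF diet, and Cyp4a10, Cyp4a14 and Cyp4a32 were higher with the Flcn guide than in HFHF control. The lowest library with the guide lay above the highest HFHF control library for each of these 3 genes. Cyp4a31, the least abundant, passed the test in no comparison. Levels are CPM scaled with edgeR's TMM factors, and fold changes are log2 values from 1 edgeR quasi-likelihood fit over all libraries and genes, with Benjamini-Hochberg adjusted p-values and a threshold of 0.05.

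Per kilobase of exon, Cyp4a10 was the most abundant of the 4 in each group mean. It was at 161.5 ± 32.4 CPM per kb (SD, n = 5) in chow control, 69.2 ± 25.8 (n = 7) in HFHF control and 234 ± 66.3 (n = 8) in HFHF Flcn gRNA libraries. Cyp4a14 was next, at 84.8 ± 47.0, 47.3 ± 21.3 and 169.9 ± 85.0 CPM per kb in the same order of groups. Compared within each library, Cyp4a10 per kb was above Cyp4a14 in 5 of 5 chow control, 7 of 7 HFHF control and 7 of 8 HFHF Flcn gRNA libraries. Cyp4a32 was at 16.5 ± 3.08, 7.93 ± 2.06 and 16.9 ± 3.54 CPM per kb. Its annotated exons, 1536 bases, are little more than its 1530 coding bases, so its level per kb is less comparable with the others. Cyp4a31 was at 1.39 ± 0.405, 1.84 ± 0.511 and 2.26 ± 1.27 CPM per kb, well below the others. In unscaled terms Cyp4a31 rested on 27.7 to 168.2 estimated counts per library. By mean log2 CPM among the 13667 tested genes, Cyp4a10 ranked 346 and Cyp4a14 487, while Cyp4a32 ranked 5067 and Cyp4a31 9444.

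Cyp4a10 was measured at 288.4, 437.6, 332.4, 376.6 and 268.4 CPM in the 5 chow control libraries. In HFHF control it ran from 76.6 to 244.9 CPM with a median of 139.6. In HFHF Flcn gRNA libraries it ran from 330.3 to 715.4 CPM with a median of 461.6. All HFHF control libraries lay below all chow control libraries and below all libraries with the guide. The log2 fold change of HFHF Flcn gRNA against HFHF control was 1.76 (SE 0.22, 95% interval 1.29 to 2.23, adjusted p 6.61e-06 in edgeR's quasi-likelihood test). The exact two-sided permutation test over libraries gave p = 0.000155, the smallest that 6435 regroupings allow. In HFHF control against chow control, Cyp4a10 fell by 1.22 on the log2 scale (SE 0.24, adjusted p 0.000263 in the same edgeR test). With the guide, 4 of 8 libraries were above the highest chow control library. That difference, 0.53 (SE 0.24, 95% interval 0.03 to 1.04), did not pass edgeR's test at an adjusted p of 0.0819. Without HFHF control replicate 5 or HFHF Flcn gRNA replicate 1 or 5, the adjusted p was 0.0413, 0.0433 and 0.0497.

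Cyp4a14 spread more widely within groups. It was measured at 185.4, 416.8, 203.9, 216.4 and 79.7 CPM in chow control, where replicate 2 stood highest and replicate 5 lowest. HFHF control libraries ran from 33.1 to 204.1 CPM with a median of 145.2, and HFHF Flcn gRNA libraries from 207.6 to 797.8 CPM with a median of 419.6. The libraries with the guide lay above all HFHF control libraries, but the chow control libraries overlapped with both other groups. The coefficient of variation within groups was 45.1 to 55.5% for Cyp4a14 and 20.1 to 37.3% for Cyp4a10. Against HFHF control, Cyp4a14 was higher with the guide by 1.84 on the log2 scale (SE 0.41, 95% interval 0.98 to 2.71, adjusted p 0.0017 in edgeR's quasi-likelihood test). The diet difference, -0.84 (SE 0.44, 95% interval -1.77 to 0.09), did not pass at an adjusted p of 0.113 in edgeR's test. Against chow control, the guide's libraries were 1.00 higher (SE 0.45, adjusted p 0.0798 in edgeR's test), and without chow control replicate 2 the difference was 1.39 with an adjusted p of 0.0274. Without the same library the diet difference was -0.44 (adjusted p 0.42 in edgeR's test).

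Cyp4a32 was measured at 25.7, 23.9, 31.5, 27.1 and 18.5 CPM in chow control. It ran from 8.11 to 18.0 CPM with a median of 12.0 in HFHF control, and from 20.7 to 34.1 CPM with a median of 23.8 in HFHF Flcn gRNA libraries. As for Cyp4a10, every HFHF control library was below every library of both other groups. Cyp4a32 fell by 1.06 on the diet (log2, SE 0.17, adjusted p 3.15e-05) and was 1.09 higher with the guide than in HFHF control (SE 0.16, 95% interval 0.76 to 1.41, adjusted p 1.83e-05), both in edgeR's quasi-likelihood test. Between HFHF Flcn gRNA and chow control libraries the difference was 0.03 (95% interval -0.32 to 0.38, adjusted p 0.902 in edgeR's test). Since HFHF control enters both of the first 2 contrasts, the fall on the diet and the rise with the guide are not independent of each other, for any of these genes.

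Cyp4a31 was measured at 2.06, 3.39, 4.62, 4.31 and 3.11 CPM in chow control. It ran from 2.88 to 6.39 CPM with a median of 4.87 in HFHF control, and from 2.62 to 10.8 CPM with a median of 4.73 with the guide. All 3 groups overlapped, and HFHF Flcn gRNA replicates 4 and 8, at 10.8 and 10.5 CPM, stood above every other library. The differences were 0.29 (SE 0.28, 95% interval -0.29 to 0.88) for the guide against HFHF control and 0.40 (SE 0.34, 95% interval -0.30 to 1.11) for the diet, with adjusted p-values of 0.444 and 0.323 in edgeR's test. Against chow control the guide's libraries differed by 0.70 (SE 0.33, adjusted p 0.0962 in edgeR's test), and without HFHF Flcn gRNA replicate 1 or 5 by 0.82, with an adjusted p of 0.0423 or 0.0447.

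**Figure D2:**
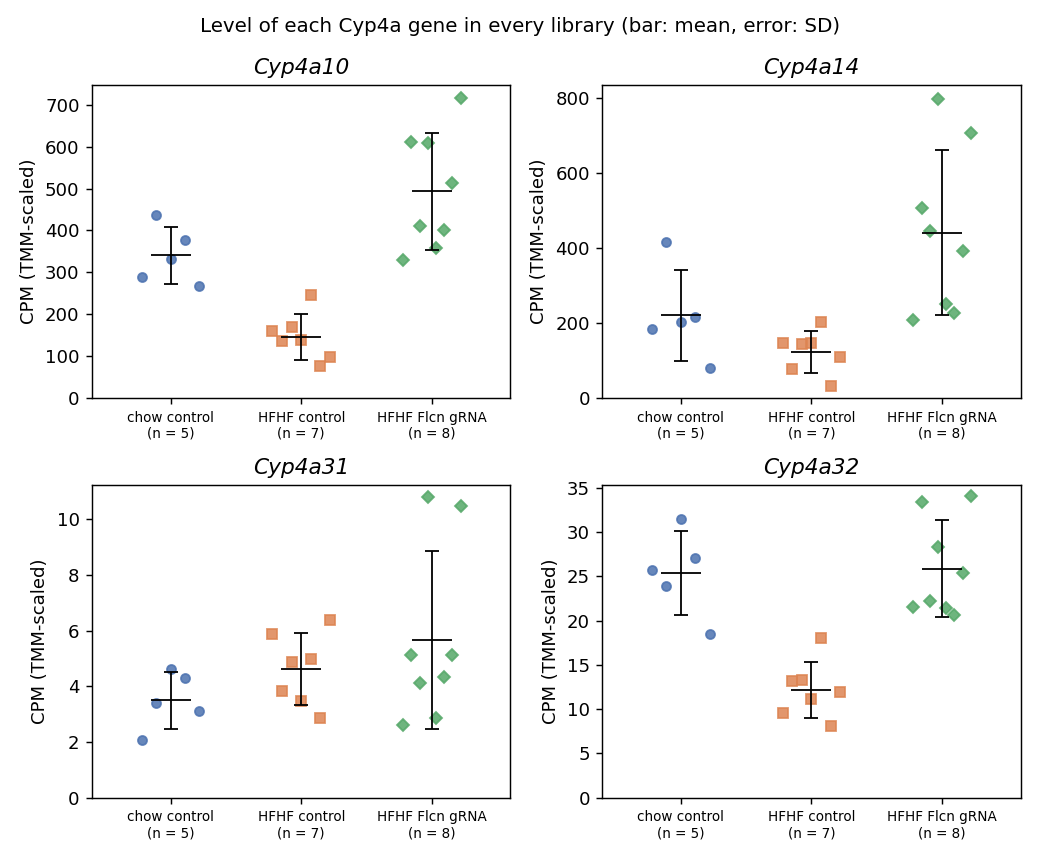
CPM (y axis, linear from 0, TMM-scaled) of the 4 genes in each library of chow control (n = 5), HFHF control (n = 7) and HFHF Flcn gRNA (n = 8), with the group mean as a bar and the SD as error. HFHF control libraries lie below both other groups for Cyp4a10 and Cyp4a32, and the groups overlap for Cyp4a31.

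Counted together, 3 of 4 genes were higher and 0 lower with the guide than in HFHF control, where 38.6% of all tested genes passed in either direction, 19.6% higher and 19.0% lower. The same 3 had no overlap between the groups' libraries with all guide libraries higher, which held for 5.04% of tested genes. On the diet 2 of 4 were lower and 0 higher, where 57.0% of tested genes passed, 28.1% higher and 28.9% lower. Both, Cyp4a10 and Cyp4a32, had all HFHF control libraries below all chow control libraries, which held for 18.1% of tested genes. Against chow control 0 of 4 passed with the guide, where 42.6% of tested genes passed, 20.9% higher and 21.7% lower. At an unadjusted p under 0.05 in edgeR's test 3 of 4 were higher, as were 24.9% of tested genes. In DESeq2 Cyp4a10 and Cyp4a14 were higher after adjustment, as were 15.2% of the 19902 genes it tested. The libraries of these groups overlapped for all 4 genes, while 18.0% of tested genes had no overlap. Beside a median of 0.01 over all tested genes, the median log2 fold change of the 4 genes was 1.42 with the guide against HFHF control. By size of this fold change from the highest down, Cyp4a14 ranked 103, Cyp4a10 110, Cyp4a32 266 and Cyp4a31 2214 of 13667. Genes that were lower on the diet and higher with the guide, as Cyp4a10 and Cyp4a32 were, made up 12.1% of all tested genes (1652).

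**Figure D3:**
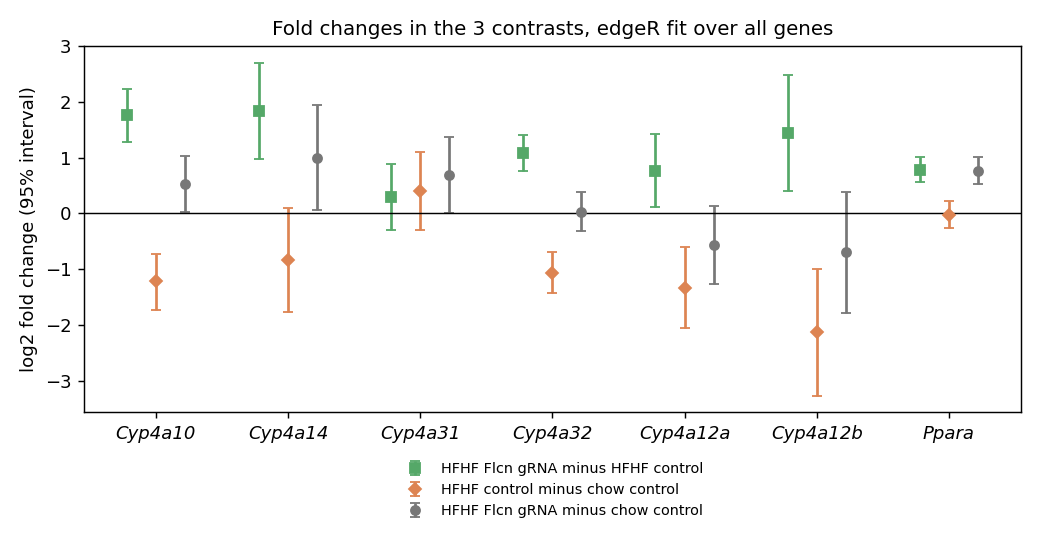
Log2 fold changes (y axis) with 95% intervals for the 4 genes, Cyp4a12a, Cyp4a12b and Ppara in the 3 contrasts, from the edgeR fit over all genes. For Cyp4a10 and Cyp4a32 the intervals for the guide against HFHF control lie above 0 and those for the diet below 0, while the diet interval of Ppara spans 0.

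Because Cyp4a10, Cyp4a31 and Cyp4a32 share reads, they were also added up within each library, an alternative chosen after the data were seen. The sum was 1.69 higher with the guide than in HFHF control on the log2 scale (SE 0.21) and 1.18 lower in HFHF control than in chow control (log2 fold change -1.18, SE 0.23). Both are close to the values of Cyp4a10, which gives most of the sum. Cyp4a14, whose words are nearly all its own, gave 1.84 (SE 0.41) for the guide against HFHF control.

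The balance between the genes was compared as log2 ratios of CPM, with exact two-sided permutation tests over libraries and adjustment over all 18 ratio tests (6 ratios in 3 contrasts). The ratio of Cyp4a10 to Cyp4a31 was 6.59 ± 0.40 (SD, n = 5) in chow control, 4.91 ± 0.54 (n = 7) in HFHF control and 6.53 ± 0.41 (n = 8) with the guide. It differed by 1.63 between the guide and HFHF control (exact permutation p = 0.000155, adjusted 0.0014), with all guide libraries higher. It differed by -1.68 between HFHF control and chow control (exact permutation p = 0.00126, adjusted 0.00454), with all HFHF control libraries lower. So Cyp4a10 changed more than Cyp4a31 in both contrasts, which share the HFHF control libraries.

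The ratio of Cyp4a10 to Cyp4a32 was 3.74 ± 0.32 in chow control, 3.52 ± 0.35 in HFHF control and 4.22 ± 0.17 with the guide (log2, SD). It was 0.70 higher with the guide than in HFHF control (exact permutation p = 0.000311, adjusted 0.00187) and 0.48 higher than in chow control (exact permutation p = 0.00311, adjusted 0.00933). The diet difference, -0.22, did not pass (exact permutation p = 0.29, adjusted 0.348). For Cyp4a10 and Cyp4a14 the log2 ratio was 0.79 ± 0.61, 0.34 ± 0.49 and 0.27 ± 0.41 in chow control, HFHF control and guide libraries. It differed by -0.07 for the guide against HFHF control, -0.45 for the diet and -0.52 for the guide against chow control. No contrast passed (adjusted exact permutation p 0.145 to 0.82), but this ratio spread more within each group than that of Cyp4a10 to Cyp4a32. The ratio of Cyp4a14 to Cyp4a32 was 0.77 higher with the guide than in HFHF control (exact permutation p = 0.0263, adjusted 0.0473) and 1.00 higher than in chow control (exact permutation p = 0.0171, adjusted 0.0385). Without HFHF Flcn gRNA replicate 8 neither passed, at differences of 0.71 and 0.94 with adjusted exact permutation p-values of 0.0882 and 0.0606. How reads common to Cyp4a10, Cyp4a31 and Cyp4a32 were divided bears on every ratio that holds one of these genes, and its part was not tested. Cyp4a14 and Cyp4a31 share 0 words of 51 bases, but the level of Cyp4a31 itself depends on that division. Their log2 ratio was 5.79 ± 0.88 in chow control, 4.57 ± 0.68 in HFHF control and 6.26 ± 0.33 with the guide (SD). It was 1.70 higher with the guide than in HFHF control, with all guide libraries higher (exact permutation p = 0.000155, adjusted 0.0014), and differed by -1.23 between HFHF control and chow control (exact permutation p = 0.0202, adjusted 0.0404). Between Cyp4a31 and Cyp4a32 the log2 ratio differed by -0.93 for the guide against HFHF control (exact permutation p = 0.00482, adjusted 0.0124) and by 1.46 for the diet (exact permutation p = 0.00126, adjusted 0.00454).

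**Figure D4:**
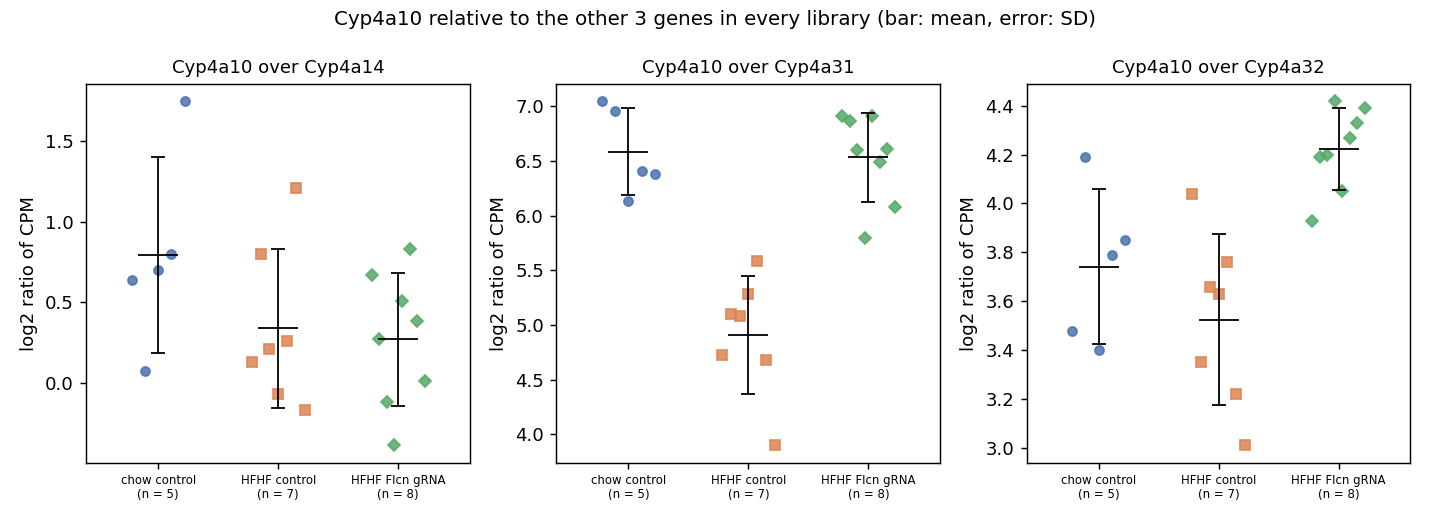
Log2 ratio of the CPM of Cyp4a10 to those of Cyp4a14, Cyp4a31 and Cyp4a32 (y axes) in each library by group, with mean and SD. The ratio to Cyp4a31 is lower in all 7 HFHF control libraries than in any other library, and the ratio to Cyp4a14 overlaps among the groups.

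Within groups, libraries with more Cyp4a10 also held more Cyp4a14. Correlations of log2 CPM were computed for 10 gene pairs in each HFHF group, 20 relations in all, with exact permutation of the pairings. In HFHF Flcn gRNA libraries (n = 8) Cyp4a10 and Cyp4a14 had Pearson's r = 0.90 (exact permutation p = 0.00496, adjusted 0.0198) and Spearman's rho = 0.88 (exact permutation p = 0.00724, adjusted 0.0483), and r = 0.83 without the 2 libraries farthest from the median of Cyp4a10. In HFHF control (n = 7) r was 0.85 (exact permutation p = 0.0107, adjusted 0.0357) and rho 0.82 (exact permutation p = 0.0341, adjusted 0.0758). Without the 2 farthest libraries r was 0.46, so its size depends on those. Leaving them out also narrows the range of values, so this cannot show whether the remaining libraries lack the relation. Cyp4a10 and Cyp4a32 had r = 0.94 with the guide (exact permutation p = 0.00109, adjusted 0.00727) and rho = 0.90 (exact permutation p = 0.00456, adjusted 0.0456), with r = 0.93 without the 2 farthest libraries. In HFHF control this pair, which shares reads, had r = 0.78 (exact permutation p = 0.0417, adjusted 0.0758) and rho = 0.68 (exact permutation p = 0.11, adjusted 0.183), and r = -0.12 without the 2 farthest libraries. With the guide, Cyp4a31 had r = 0.91 with Cyp4a10 (exact permutation p = 0.00109, adjusted 0.00727) and 0.90 with Cyp4a14 (exact permutation p = 0.00325, adjusted 0.0162). Their rho of 0.86 and 0.83 did not pass (exact permutation p = 0.0107 and 0.0154, adjusted 0.0513 each). In HFHF control r was 0.38 and 0.64 and did not pass (exact permutation p = 0.404 and 0.116, adjusted 0.528 and 0.166).

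Ppara, the gene of the receptor that acts on Cyp4a10 and Cyp4a14, was at 91.6 ± 11.9 CPM (SD, n = 5) in chow control, 90.3 ± 15.1 (n = 7) in HFHF control and 156 ± 21.7 (n = 8) with the guide. It was 0.79 higher on the log2 scale with the guide than in HFHF control (SE 0.10, adjusted p 4.29e-06 in edgeR's test), with all guide libraries above all HFHF control libraries, whereas the diet difference was -0.02 (SE 0.12, 95% interval -0.26 to 0.22, adjusted p 0.889 in edgeR's test). Among HFHF control libraries Cyp4a14 followed the order of Ppara without exception. The library with the least Cyp4a14, replicate 6 at 33.1 CPM, had the least Ppara at 64.4 CPM, and the library with the most, replicate 5 at 204.1 CPM, had the most Ppara at 111.1 CPM. Pearson's r was 0.99 (exact permutation p = 0.000198, adjusted 0.00396) and Spearman's rho 1.00 (exact permutation p = 0.000397, adjusted 0.00794), each p the smallest that 5040 pairings allow for its measure, and r was 0.98 without the 2 farthest libraries.

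In HFHF Flcn gRNA libraries the same pair had r = -0.19 (exact permutation p = 0.643, adjusted 0.714) and rho = -0.10 (exact permutation p = 0.84, adjusted 0.882). There replicate 6 held the most Ppara, 190.9 CPM, with 226.2 CPM of Cyp4a14, and replicate 8 the least Ppara, 125.1 CPM, with 708.3 CPM of Cyp4a14. Whether the relation differs between the 2 groups was not tested. For Cyp4a10 and Ppara r was 0.86 in HFHF control (exact permutation p = 0.0127, adjusted 0.0363) and rho was 0.82 (exact permutation p = 0.0341, adjusted 0.0758). Without the 2 farthest libraries r was 0.40, so its size depends on those, though leaving them out also narrows the range of values. With the guide this pair had r = -0.05 (exact permutation p = 0.901, adjusted 0.948) and rho = -0.07 (exact permutation p = 0.882, adjusted 0.882).

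**Figure D5:**
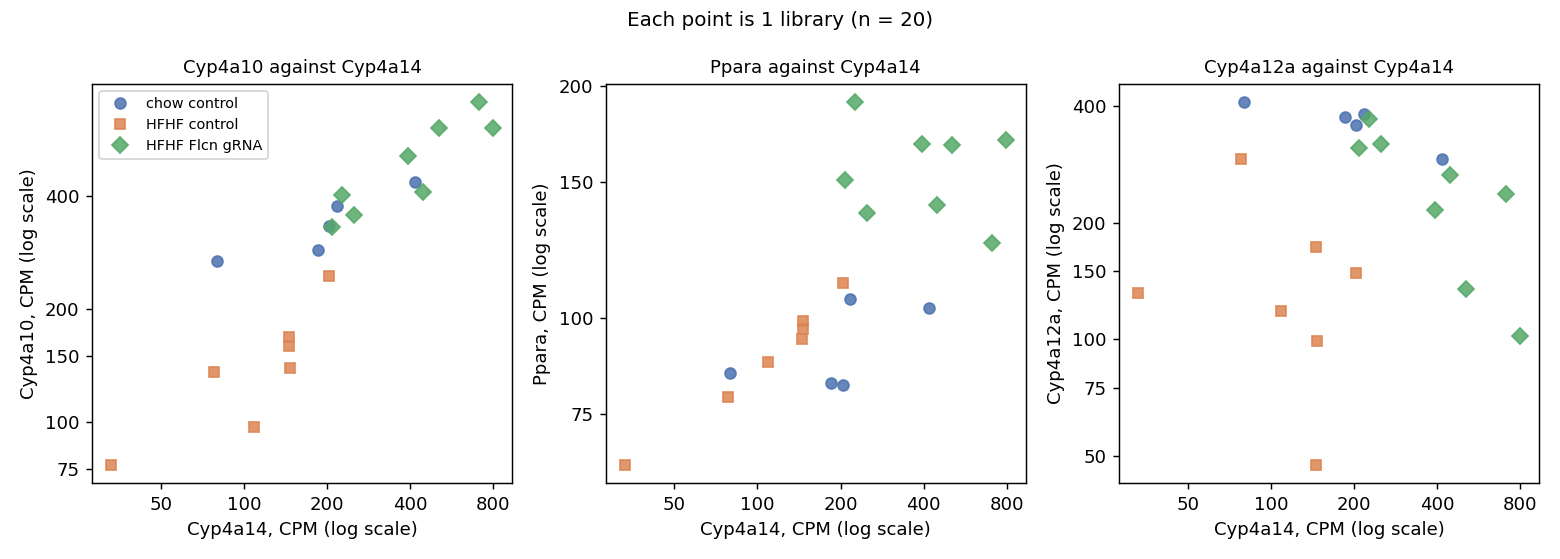
Cyp4a10, Ppara and Cyp4a12a (y axes, CPM, log scale) against Cyp4a14 (x axis, CPM, log scale), 1 point per library. The 7 HFHF control libraries form a rising line for Ppara (r = 0.99), and the 8 HFHF Flcn gRNA libraries do not (r = -0.19).

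Cyp4a12a and Cyp4a12b, neighbours in the same cluster, encode male-biased hydroxylases of the subfamily. Their coding sequences were 98.5% identical and they share 1147 51-base words, so the division between them is uncertain. Cyp4a12a was at 363 ± 44.3 CPM (SD, n = 5) in chow control, 144 ± 76.1 (n = 7) in HFHF control and 244.3 ± 92.1 (n = 8) with the guide. It fell on the diet by 1.33 (log2, SE 0.34, adjusted p 0.00295 in edgeR's test), with all HFHF control libraries lower. With the guide it was 0.76 higher than in HFHF control (SE 0.31) and did not pass at an adjusted p of 0.0603 in edgeR's test. Cyp4a12b fell by 2.13 on the diet (SE 0.54, adjusted p 0.0027) and was 1.44 higher with the guide than in HFHF control (SE 0.49, adjusted p 0.028), both in edgeR's test, though the libraries of the guide and of HFHF control overlapped. Among guide libraries Cyp4a12a ran against Cyp4a14: r was -0.80 (n = 8, exact permutation p = 0.0168, adjusted 0.042) and rho -0.81 (exact permutation p = 0.0218, adjusted 0.0623), with r = -0.66 without the 2 farthest libraries. In HFHF control the pair had r = -0.25 (n = 7, exact permutation p = 0.544, adjusted 0.64) and rho = -0.32 (exact permutation p = 0.498, adjusted 0.586), and r = 0.18 without the 2 farthest libraries. Whether the groups differ in this was not tested. The library with the most Cyp4a14, replicate 4 at 797.8 CPM, had the least Cyp4a12a, 101.7 CPM.

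Within 300 kb of the 4 genes, 7 other protein-coding genes were tested, Cyp4a12a and Cyp4a12b among them. Of the 5 outside the subfamily, Atpaf1, an assembly factor of the mitochondrial ATP synthase, was higher with the guide than in HFHF control by 0.32 (SE 0.06, adjusted p 0.000125 in edgeR's test). Cyp4b1, at 0.32 (SE 0.20), and Efcab14, Mob3c and Mknk1, between -0.05 and 0.02, did not pass in edgeR's test. Beside them, Cyp4a10, Cyp4a14 and Cyp4a32 differed by 1.76, 1.84 and 1.09 in the same contrast.

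Of 16 other Cyp4 genes, 10 passed the filter on low counts. With the guide against HFHF control 4 of these rose and 2 fell, and on the diet 2 rose and 7 fell. The median log2 fold changes were 0.36 and -0.70. Of all tested genes, 19.6% rose and 19.0% fell with the guide against HFHF control, and 28.1% rose and 28.9% fell on the diet, which is the background for this and the following lists. Cyp4v3, a hydroxylase of fatty acids in many tissues, was higher with the guide by 0.50 (SE 0.10, adjusted p 0.000323 in edgeR's test), and Cyp4f15 by 0.41 (SE 0.10, adjusted p 0.00253). The opposite direction was seen for Cyp4f18, an enzyme of leukotriene breakdown in neutrophils and other leukocytes, which was lower with the guide by more than 2 log2 units (-2.26, SE 0.25, adjusted p 5.89e-07 in edgeR's test) and higher on the diet by 2.36 (SE 0.32). Its level was low, with means of 0.322 CPM in chow control, 1.69 in HFHF control and 0.351 with the guide. Cyp4f16, also low at means of 0.848, 4.81 and 2.53 CPM in the same order of groups, was lower with the guide (-0.92, SE 0.21, adjusted p 0.00158 in edgeR's test) and higher on the diet by 2.49 (SE 0.29). Both moved in the direction of the macrophage markers given above, whose part in these 2 results was not tested.

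CYP4A enzymes draw electrons from P450 reductase, encoded by Por, and from cytochrome b5. Of the 4 donor genes, 2 rose and 1 fell with the guide against HFHF control. Cyb5a was 0.26 higher (SE 0.09, adjusted p 0.033), Cyb5b 0.21 higher (SE 0.08, adjusted p 0.0489) and Cyb5r3 0.25 lower (log2 fold change -0.25, SE 0.09, adjusted p 0.0269), all in edgeR's test. Por, at 107 CPM in both HFHF group means, had a log2 fold change of 0.00 (SE 0.19). Of the 5 alcohol and aldehyde dehydrogenase genes of the following steps, 1 rose with the guide: Adh5, by 0.36 (SE 0.06, adjusted p 4.54e-05 in edgeR's test). Aldh3a2, the fatty aldehyde dehydrogenase, did not pass between the HFHF groups (0.18, SE 0.11, adjusted p 0.21) but was 1.26 higher in HFHF control than in chow control (SE 0.13, adjusted p 5.55e-08 in edgeR's test), the opposite direction to Cyp4a10 and Cyp4a32. Adh1, Adh4 and Adh7 did not pass between the HFHF groups either.

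Of 22 measured genes of peroxisomal fatty acid uptake and oxidation, 10 rose and 1 fell with the guide against HFHF control, and the median log2 fold change was 0.23. On the diet 4 rose and 6 fell, 10 of 22 beside 57.0% of all tested genes. Nudt7, a peroxisomal coenzyme A hydrolase, was 1.03 higher with the guide (SE 0.18, adjusted p 0.000159 in edgeR's test) and 2.01 lower on the diet (log2 fold change -2.01, SE 0.20). Acsl1, which activates long-chain fatty acids, was 0.61 higher with the guide (SE 0.09, adjusted p 1.16e-05) and Slc27a2, a very long-chain acyl-CoA synthetase, 0.60 higher (SE 0.09, adjusted p 3.31e-05), both in edgeR's test. A smaller rise was found for Scp2, a peroxisomal thiolase (0.23, SE 0.07, adjusted p 0.0101 in edgeR's test).

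Of 14 genes of PPARA and its partners, 4 rose and 0 fell with the guide against HFHF control. Besides Ppara, these were Ppargc1a, a coactivator (1.37, SE 0.20, adjusted p 2.79e-05 in edgeR's test), Ncor1, a corepressor (0.28, SE 0.06), and Med1, a Mediator subunit (0.20, SE 0.07). Ppargc1b, another coactivator, did not pass (0.44, SE 0.19, adjusted p 0.0672 in edgeR's test). Of 24 other PPARA targets, 12 rose and 2 fell with the guide, with a median of 0.29, and on the diet 10 rose and 5 fell, with a median of 0.10. The 15 of 24 that passed on the diet are a share near the 57.0% of all tested genes. Acadl and Etfdh, both of mitochondrial fatty acid oxidation, were 0.40 and 0.42 higher with the guide (SE 0.06 each, adjusted p 4.43e-05 and 5.11e-06 in edgeR's test), and Hadhb, of the mitochondrial trifunctional protein, 0.36 higher (SE 0.06, adjusted p 5.33e-05). Ucp2 moved the other way, with a log2 fold change of -1.02 (SE 0.10, adjusted p 1.76e-07 in edgeR's test). Ucp3 was higher by 3.21 (SE 0.43, adjusted p 4.82e-06 in edgeR's test) from a low level, 0.158 CPM in HFHF control and 1.49 CPM with the guide. The median of the 4 Cyp4a genes on the diet, -0.95, thus stood beside a median of 0.10 for these other targets.

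In liver lobules CYP4A proteins are known mainly around the central vein. Of 10 pericentral genes, 4 rose and 0 fell with the guide against HFHF control, and 0 rose and 6 fell on the diet. Counted in either direction, these shares are near those of all tested genes that passed, 38.6% and 57.0%. By direction, 19.6% of all tested genes were higher with the guide and 28.9% lower on the diet. The medians of the list were 0.04 and -0.96. Slc1a2, a glutamate transporter, was 1.91 higher with the guide (SE 0.17, adjusted p 9.19e-08), Cyp1a2 1.68 higher (SE 0.16, adjusted p 1.75e-07), Oat, of ornithine breakdown, 1.24 higher (SE 0.18, adjusted p 2.49e-05) and Cyp2e1 0.79 higher (SE 0.16, adjusted p 0.000425), all in edgeR's test. Axin2, a Wnt target, was at -0.20 (SE 0.11) and did not pass. Of 9 periportal genes, 3 rose and 0 fell with the guide, and 1 rose and 7 fell on the diet, with medians of 0.19 and -0.78. Cyp2f2 was 0.52 higher with the guide (SE 0.10), Hal, the histidine ammonia-lyase, 0.81 higher (SE 0.19) and Cdh1, the gene of E-cadherin, 0.88 higher (SE 0.31). Pck1, of gluconeogenesis, at -0.42 (SE 0.25), and Sds, the serine dehydratase, at -0.33 (SE 0.22), did not pass. The hepatocyte markers also moved with these results: 3 of 8 were higher and 0 lower with the guide, and 0 higher and 7 lower on the diet. The part of either in the Cyp4a values was not tested.

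Genes most like Cyp4a10 over all 20 libraries, by Pearson's r of log2 CPM, were Hibch, of valine breakdown (0.95), Etfdh (0.94), Hsd11b1 (0.94), Gcdh (0.93) and Bag4 (0.93). With each group's mean taken off, they were Hibch (0.83), Acat1 (0.81), Cab39l (0.80), Gstt1 (0.80) and Hsd11b1 (0.80). Those most like Cyp4a14 were Fmo1 (0.90), Shpk (0.90), Gm11992 (0.90), Cbr4 (0.88) and Hibch (0.88). With group means off, they were Vnn3 (0.89), Gstt3 (0.89), Nudt19 (0.89), Cyp2b9 (0.88) and Vldlr (0.86). Hibch and Hsd11b1 thus stayed among the 5 genes most like Cyp4a10 once the differences between groups were taken away, while none of the 5 for Cyp4a14 did. This reflects the cut at 5 genes. With group means off, the first 5 for Cyp4a14 still had r of 0.77 to 0.82, and the first 5 for Cyp4a10 had 0.69 to 0.83. These values describe libraries that share depth and group, and carry no test.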

How the data were processed

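RNA was taken from liver, mRNA libraries were made with a KAPA kit and UMI (unique molecular identifier) adapters, and single-end reads of 51 cycles were sequenced, per the labels' protocols. The deposited values are the authors' estimated counts per Ensembl gene (expected counts), of which 77.8% of those of at least 1 were whole. The build was GRCm38, per the submitters' processing notes. For the aligner, counter, annotation, strand and UMI use nothing is given in the sources used here, so amplified copies may count as reads. Of the 32422 features, 22 construct features with 7 counts in all were left out. The 1 column that matched no sample label was not used. Groups came from the diet and treatment labels, and replicate numbers follow accession order and pair nothing.

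Expected counts were rounded. Genes were kept with filterByExpr on the 3 groups (13667), scaled with TMM and fitted with edgeR 4.0.16 in R 4.3.3 (estimateDisp, robust glmQLFit, glmQLFTest), all 20 libraries in 1 fit (17 residual degrees of freedom, common biological coefficient of variation 0.164). SEs were derived from the F statistic and are approximate. Ratios and correlations used log2 CPM with a prior count of 2 and exact two-sided permutation. The script was tested on simulated data. Transcripts of GENCODE M21 gave the symbols (32248 genes matched), the sequences, the 51-base words and, with mafft 7.526, the coding identities. Members and gene lists were chosen with earlier results of these data known. Named genes are the 4 members, Ppara, Cyp4a12a, Cyp4a12b, up to 5 genes of smallest p per list in the contrast of guide and HFHF control, the 5 most alike for Cyp4a10 and Cyp4a14, and tested neighbours; Aldh3a2 and Por belong to lists with no more than 5 genes. A gene that this rule names is not reported here. Alternatives were upper-quartile and RLE scaling, no filter on low counts, DESeq2 1.42.0, only the 2 groups compared, leaving out each library in turn, and adding up the members.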

Additional observations from a re-analysis of the deposited data

How the results depend on the processing

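Under upper-quartile scaling, RLE scaling, no filter on low counts, DESeq2, and a fit of only the 2 groups compared, all 12 fold changes of the 4 genes kept their direction, and calls changed only against chow control. With DESeq2, Cyp4a10 and Cyp4a14 were higher with the guide than in chow control, by 0.54 (adjusted p 0.0451) and 1.01 (adjusted p 0.0397). With only the 2 groups compared, edgeR gave 0.55 for Cyp4a10 (adjusted p 0.0338). Adding up all 4 genes gave 1.76 for the guide against HFHF control, -1.05 for the diet and 0.71 for the guide against chow control, which moved the values from those of Cyp4a31 and Cyp4a32. Adding up only Cyp4a10, Cyp4a31 and Cyp4a32, chosen after seeing the data, gave 1.69, -1.18 and 0.51.

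Leaving out each library in turn changed no call for the guide against HFHF control, with ranges of 1.65 to 1.92 (Cyp4a10), 1.67 to 2 (Cyp4a14), 0.10 to 0.39 (Cyp4a31) and 1.01 to 1.2 (Cyp4a32), nor for the diet, with -1.36 to -1.08, -1.02 to -0.44, 0.30 to 0.55 and -1.14 to -0.94. For the guide against chow control the ranges were 0.46 to 0.67 (adjusted p 0.0413 to 0.156), 0.81 to 1.39 (0.0274 to 0.166), 0.50 to 0.84 (0.0423 to 0.199) and -0.04 to 0.14 (0.555 to 0.972). The last turned negative without chow control replicate 5 (-0.04) and without HFHF Flcn gRNA replicate 2 or 8 (-0.01 each). The causes were not tested. Counts of genes that passed stayed within 1.5 times of the main counts under every alternative run. The share of calls that were higher was 50.7%, 49.4% and 49.1% with TMM and 37.8%, 60.7% and 55.6% with upper-quartile scaling (guide against HFHF control, diet, guide against chow control). No paired analysis was possible because replicate numbers only follow accession order. Cyp4a31 is limited by depth, at 27.7 to 168.2 estimated counts per library.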
